A study of Mus musculus with 6 samples.

Results

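The Toll-like receptors Tlr1 to Tlr9 and their shared adaptor Myd88, 10 genes chosen by name from a table of 26323 genes, were followed while mouse fibroblasts were converted to blood by transcription factors. RNA was hybridised to Mouse Exon 1.0 ST arrays, with 2 arrays in each of 3 groups, 6 in all. The groups were untreated, untransduced wild-type mouse embryonic fibroblasts (MEFs), CDH5+ cells sorted 8 days after transduction of such fibroblasts with ERG, GATA2, LMO2, RUNX1c and SCL, and c-KIT+ cells sorted 12 days after it. Per the study's methods, the factors were carried by lentiviruses, cells that carried CD31, CD41, CD45 or c-KIT had been removed from the fibroblasts before infection, and infected cells were moved to a medium that supports blood cells, so that factors, sort and medium differ together between transduced cells and untreated MEFs and cannot be told apart, nor can day and sort marker between the sorted groups. No member of the family was among the transduced factors. The 2 arrays of a group are given as biological replicates, with nothing further on how their cultures were kept apart, so each p-value measures the spread between these arrays.

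Toll-like receptors are membrane proteins that bind molecules shared by many microbes and start the inflammatory response of innate immunity. Tlr1, Tlr2, Tlr4, Tlr5 and Tlr6 act mainly at the cell surface on lipopeptides, lipopolysaccharide and flagellin, whereas Tlr3, Tlr7, Tlr8 and Tlr9 lie in endosomes and are best known for binding nucleic acids. All of them except Tlr3 signal through the adaptor Myd88, which recruits IRAK kinases and TRAF6 and leads to NF-kB; Tlr3 uses the adaptor TRIF, encoded by Ticam1. Macrophages, dendritic cells and neutrophils carry many of these receptors, and fibroblasts and blood progenitors carry some of them.

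Each sort marker was highest in the group sorted for it. Cdh5, the cadherin of endothelial junctions, was at 10.16 and 10.95 (log2 expression value) in CDH5+ cells, against 5.26 and 5.01 in untreated MEFs. Kit, the stem cell factor receptor, was at 8.19 and 8.33 in c-KIT+ cells, against 4.54 and 4.73 in untreated MEFs. Each sorted group also had the other's marker above the untreated level. Kit was at 6.98 and 7.30 in CDH5+ cells, and Cdh5 at 7.20 and 7.49 in c-KIT+ cells. The 884 olfactory receptor genes, which such cells should not transcribe, gave a background: 95% of them lay below a log2 value of 5.90 to 6.04, depending on the array. Ptprc, which encodes the leukocyte antigen CD45, stayed below that level on all 6 arrays, although the other 3 of 4 pan-leukocyte markers exceeded it on every CDH5+ and c-KIT+ array. Replicate arrays correlated across genes with r = 0.907 for the untreated arrays, 0.944 for the CDH5+ and 0.969 for the c-KIT+ arrays, and the 2 untreated arrays stood further apart than the others.

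None of the 10 genes passed limma's test at an adjusted p of 0.05 in any comparison. In c-KIT+ cells against untreated MEFs, 0 members were called higher and 0 lower, where 3.24% of all genes were called higher and 2.72% lower, and 2 members, Tlr3 and Tlr7, had an unadjusted p under 0.05, a mark that 21.1% of all genes reached. In CDH5+ cells against untreated MEFs, 0 members were called in either direction, beside 0.965% of all genes called higher and 0.213% lower, and 0 of the 10 reached an unadjusted p of 0.05, beside 15.3% of all genes. In c-KIT+ cells against CDH5+ cells, 0 members were called, as was 0% of all genes in either direction, and 1 member, Tlr3, had an unadjusted p under 0.05, beside 16% of all genes. The F-test over the 3 groups, which called 3.3% of all genes, called 0 members, with 2 (Tlr3 and Tlr7) at an unadjusted p under 0.05 and adjusted p-values of 0.220 for Tlr3, 0.230 for Tlr7 and 0.376 to 0.913 for the others. Across the alternative settings of the pairwise tests that kept 2 arrays in each group, the number of members called was 0. Fits without 1 array leave a group with 1 array and are not part of this count. In them the outcome for Tlr3 depended on which array was left out.

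The differences of the 10 genes went both ways. Their median log2 difference was 0.09 in c-KIT+ cells against untreated MEFs, beside 0.05 over all genes, with 7 of 10 positive. It was 0.18 in CDH5+ cells against untreated MEFs, beside −0.07 over all genes, with 6 positive, and 0.03 in c-KIT+ against CDH5+ cells, beside 0.10, with 5 positive. The arrays of c-KIT+ cells and untreated MEFs did not overlap for Tlr7 and Tlr9, both higher in c-KIT+ cells, as for 28.6% of all genes, nor for Tlr3, lower in c-KIT+ cells, as for 22.9% of all genes. Those of CDH5+ cells and untreated MEFs did not overlap for Tlr2, Tlr4 and Tlr7, all higher in CDH5+ cells, as for 18.1% of all genes, and 0 members had such a gap in the lower direction, as 25.2% of all genes did. Between c-KIT+ and CDH5+ cells, Tlr9 and Myd88 were higher without overlap, as 36.6% of all genes were, and Tlr2, Tlr3 and Tlr4 lower, as 18.7% were.

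**Figure D1:**
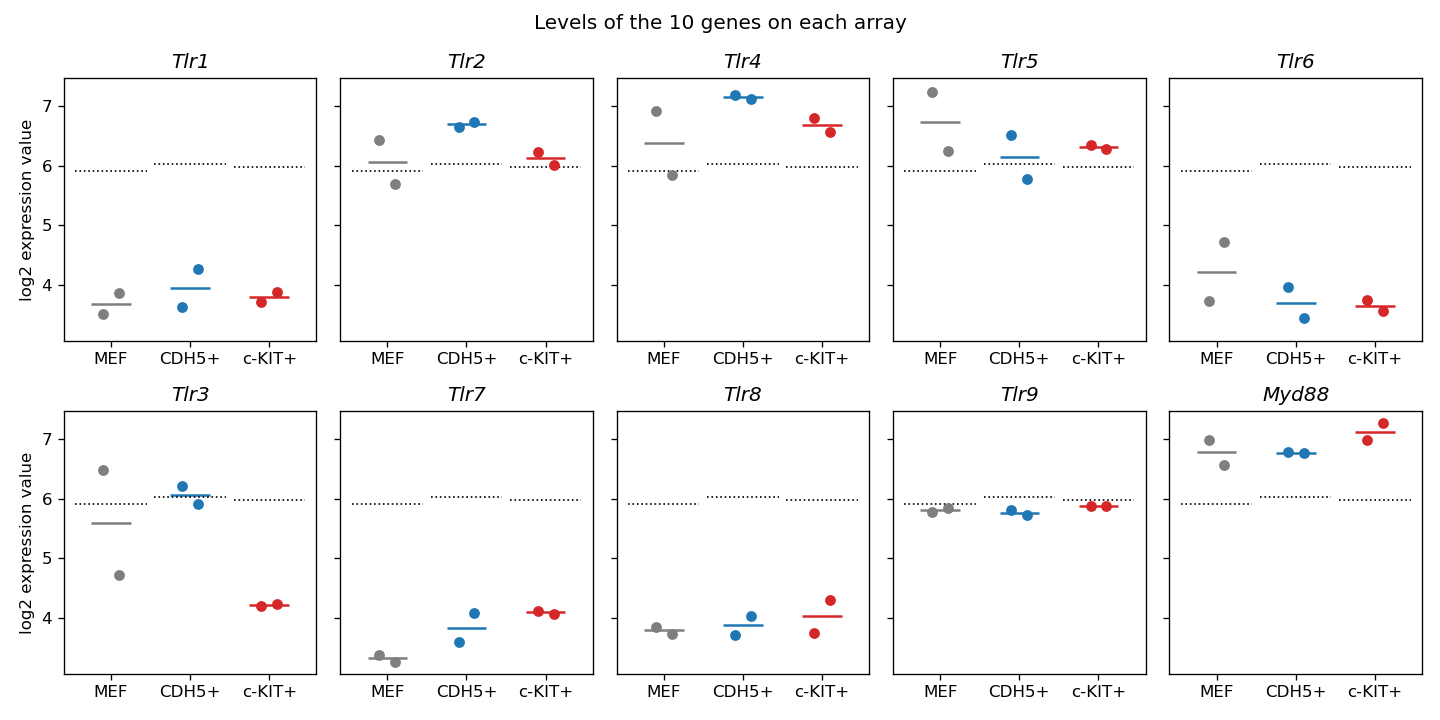
Log2 expression value (vertical axis) of each of the 10 genes on each array, by group: MEF for untreated MEFs, CDH5+ for the day 8 cells and c-KIT+ for the day 12 cells. Points are single arrays, solid bars group means (n = 2), and dotted lines the 95th percentile of the 884 olfactory receptor genes, averaged over the group's 2 arrays; Tlr1, Tlr6, Tlr7, Tlr8 and Tlr9 lay below it on all 6 arrays, and Tlr3 was at 4.19 and 4.23 in c-KIT+ cells.

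Against the olfactory background, the genes of the family differed in signal. Myd88 exceeded the level of its array on all 6 arrays, Tlr2, Tlr4 and Tlr5 on 5 each, and Tlr3 on 2. Both c-KIT+ values of Tlr3 lay below it. Tlr1, Tlr6, Tlr7, Tlr8 and Tlr9 exceeded it on 0 arrays, so a difference in these 5 gene values rests on signals that cannot be told from background. Tlr9 lay close under the level, with a mean of 5.82 over the 6 arrays, and the means of its probe sets ran from 2.43 to 8.81. In such bulk RNA, fewer cells of a type and less RNA per cell cannot be told apart.

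Among the cell surface receptors, Tlr4 (ENSMUSG00000039005), the receptor for lipopolysaccharide, had its highest values in CDH5+ cells. It was at 6.92 and 5.84 on the untreated arrays, 7.19 and 7.12 on the CDH5+ arrays and 6.81 and 6.57 on the c-KIT+ arrays. Both CDH5+ arrays lay above all other arrays, and the second untreated array was the lowest of the 6. The log2 difference was 0.78 in CDH5+ cells against untreated MEFs (SE 0.37, 95% interval −0.15 to 1.70, limma adjusted p = 0.401), and it was 1.32 without the first untreated array and 0.24 without the second. In c-KIT+ cells it was 0.31 against untreated MEFs (−0.61 to 1.23, adjusted p = 0.709) and −0.46 against CDH5+ cells (−1.39 to 0.46, adjusted p = 0.587), the second value being −0.71 after quantile normalization and −0.78 with probe set medians.

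Tlr2 (ENSMUSG00000027995), which pairs with Tlr1 or Tlr6 to bind bacterial lipopeptides, had the same order of groups. Its values were 6.44 and 5.70 on the untreated arrays, 6.66 and 6.74 on the CDH5+ arrays and 6.24 and 6.02 on the c-KIT+ arrays. The CDH5+ arrays were again the highest of the 6 and the second untreated array the lowest. CDH5+ cells differed from untreated MEFs by 0.63 (SE 0.29, −0.09 to 1.36, adjusted p = 0.381), by 1.00 without the first untreated array and 0.26 without the second, and by 0.30 when the median of its probe sets was used. In c-KIT+ cells the difference was 0.06 against untreated MEFs (−0.66 to 0.78, adjusted p = 0.936) and −0.57 against CDH5+ cells (−1.29 to 0.15, adjusted p = 0.400).

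The flagellin receptor Tlr5 (ENSMUSG00000079164) was at 7.24 and 6.24 on the untreated arrays, 6.51 and 5.78 on the CDH5+ arrays and 6.35 and 6.28 on the c-KIT+ arrays. Its first untreated array was the highest, and all 3 groups overlapped. The differences from untreated MEFs were −0.60 in CDH5+ cells (−1.60 to 0.41, adjusted p = 0.554) and −0.42 in c-KIT+ cells (−1.43 to 0.58, adjusted p = 0.631), each within an interval that includes 0.

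Tlr1 (ENSMUSG00000044827) and Tlr6 (ENSMUSG00000051498), the partners of Tlr2, stayed within background. Tlr1 ranged from 3.51 to 4.27 over the 6 arrays and differed from untreated MEFs by 0.27 in CDH5+ cells (−0.44 to 0.97, adjusted p = 0.729) and 0.11 in c-KIT+ cells (−0.60 to 0.82, adjusted p = 0.875). Tlr6 ranged from 3.44 to 4.72, with its highest value on the second untreated array, and differed by −0.52 in CDH5+ cells (−1.47 to 0.42, adjusted p = 0.585) and −0.57 in c-KIT+ cells (−1.52 to 0.37, adjusted p = 0.471). Without the second untreated array the Tlr6 differences were −0.018 in CDH5+ and −0.069 in c-KIT+ cells, and without the first −1.03 and −1.08. For both genes the array groups overlapped in every comparison.

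Among the endosomal receptors, Tlr3 (ENSMUSG00000031639), which binds double-stranded RNA, had the largest absolute differences of the family in c-KIT+ cells. It was at 6.49 and 4.71 on the untreated arrays, 6.21 and 5.90 on the CDH5+ arrays and 4.19 and 4.23 on the c-KIT+ arrays. Both c-KIT+ arrays lay below the other 4, and the untreated arrays were 1.77 apart, more than for any other member and beside a median gap of 0.37 over all genes in that group. The log2 difference in c-KIT+ cells was −1.39 against untreated MEFs (SE 0.56, −2.77 to −0.0083, limma adjusted p = 0.234) and −1.85 against CDH5+ cells (SE 0.56, −3.23 to −0.47, adjusted p = 0.246). CDH5+ cells differed from untreated MEFs by 0.46 (−0.92 to 1.84, adjusted p = 0.766).

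The size of the Tlr3 difference turned on the untreated arrays. The difference of c-KIT+ cells from untreated MEFs was −2.28 without the second one and −0.50 without the first. With all 6 arrays, the F-test over the 3 groups gave Tlr3 an adjusted p of 0.220. Against CDH5+ cells, the difference in c-KIT+ cells was −2.0 to −1.69 with 1 array left out. Each of these fits leaves 1 array in a group, so only the sizes are given. Fibroblast transcripts were also lowest in c-KIT+ cells: the summed level of 6 fibroblast markers (log2 of the sum of linear values) was 13.76 and 12.61 on the untreated arrays, 12.82 and 11.31 on the CDH5+ arrays and 10.87 and 10.92 on the c-KIT+ arrays, and the untreated array with less Tlr3 also had less of these markers. In their means, the CDH5+ arrays went the other way, with a lower marker level but a higher Tlr3 value than the untreated arrays. Within the CDH5+ group, the array at a marker level of 12.82 had more Tlr3 (6.21) than the array at 11.31 (5.90). The markers also differed among themselves. Dcn averaged 9.84 on the untreated arrays and 10.93 on the CDH5+ arrays, whereas every other marker of the list averaged less on the CDH5+ arrays. At least 5 of the 6 markers exceeded background on every array, and the part of fibroblast transcripts in the Tlr3 values was not tested.

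The deposited probe sets gave a finer view of Tlr3, since exon arrays measure a gene at many places. All 19 probe sets assigned to Tlr3 alone had lower means in c-KIT+ cells, set against untreated MEFs, by a median of −1.38 and a range of −2.87 to −0.18. Set against CDH5+ cells, all 19 were lower as well, between −3.32 and −0.11. Of 5962 genes with at least 19 probe sets, 3.87% had all of them lower in the first of these comparisons and 1.06% in the other. Both c-KIT+ arrays lay below both untreated arrays in 12 of the 19 and below both CDH5+ arrays in 18 of the 19. The first untreated array exceeded the second in all 19 too, so the gap between these replicates ran through all of them. Probe sets of a gene read the same RNA and are not replicates.

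The promoter of Tlr3 is shown because this gene had the largest difference and 4 of the 5 transduced factors bind DNA with known core letters. Given below is the RefSeq-derived sequence of the 250 bases before its start (GRCm38.p6, chr8:45410381-45410630, minus strand), 5′ to 3′. The capitals mark AGATAA, the letters searched for GATA factors.
Tlr3: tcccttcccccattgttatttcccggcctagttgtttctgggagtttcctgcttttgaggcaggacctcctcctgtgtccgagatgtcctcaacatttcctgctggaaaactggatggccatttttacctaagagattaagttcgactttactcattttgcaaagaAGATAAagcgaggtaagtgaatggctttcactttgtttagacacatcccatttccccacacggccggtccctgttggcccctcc
The GATA core lay at bases 167 to 172 of the window. Windows of this length were searched on both strands for 4 motifs, and 14% of all 32851 windows held TGTGGT (RUNX), 9.99% AGATAA (the core of GATA factors), 29.5% AGGAAG (ETS, the family of ERG) and 14.4% CAGATG (an E-box of the kind SCL binds). The other 3 had no match in the Tlr3 window, and a match is no more than these letters.

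Tlr7 (ENSMUSG00000044583), a receptor for single-stranded RNA, was at 3.38 and 3.26 on the untreated arrays, 3.59 and 4.08 on the CDH5+ arrays and 4.12 and 4.06 on the c-KIT+ arrays. All 4 transduced arrays lay above both untreated arrays, and all 6 lay within background. The difference from untreated MEFs was 0.77 in c-KIT+ cells (SE 0.23, 0.19 to 1.35, limma adjusted p = 0.135) and 0.51 in CDH5+ cells (SE 0.23, −0.06 to 1.09, adjusted p = 0.376). Of its 9 probe sets, 7 had a positive difference between c-KIT+ cells and untreated MEFs, with a median of 0.43. With the median of its probe sets on each array in place of the gene value, the difference was 1.26 in c-KIT+ cells (adjusted p = 0.0527) and 1.35 in CDH5+ cells (adjusted p = 0.0926).

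Tlr8 (ENSMUSG00000040522), a close relative of Tlr7, ranged from 3.71 to 4.30 and differed from untreated MEFs by 0.24 in c-KIT+ cells (−0.42 to 0.89, adjusted p = 0.684) and 0.08 in CDH5+ cells (−0.57 to 0.74, adjusted p = 0.924). Tlr9 (ENSMUSG00000045322), which binds unmethylated CpG DNA, was the steadiest member, at 5.77 and 5.84 on the untreated arrays, 5.82 and 5.72 on the CDH5+ arrays and 5.88 and 5.88 on the c-KIT+ arrays. These values sat under the olfactory 95th percentile on every array. Its difference from untreated MEFs was 0.08 in c-KIT+ cells (−0.38 to 0.54, adjusted p = 0.867) and −0.04 in CDH5+ cells (−0.50 to 0.42, adjusted p = 0.953).

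**Figure D2:**
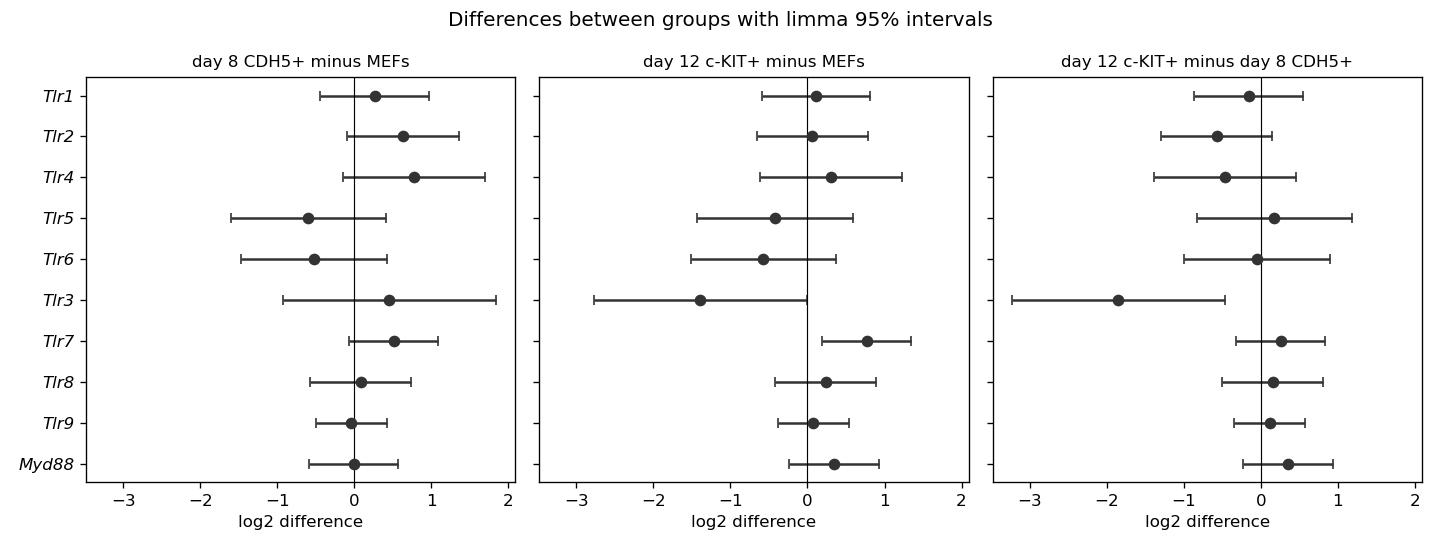
Log2 difference (horizontal axis) of each of the 10 genes in day 8 CDH5+ cells and in day 12 c-KIT+ cells against untreated MEFs, and in c-KIT+ against CDH5+ cells. Points are differences of group means (n = 2 each) and bars limma's 95% intervals without adjustment for the number of genes; those of Tlr3 reach from −2.77 to −0.0083 and from −3.23 to −0.47 in the comparisons of c-KIT+ cells, and that of Tlr7 from 0.19 to 1.35 in c-KIT+ cells against untreated MEFs.

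Myd88 (ENSMUSG00000032508), the adaptor through which all these receptors but Tlr3 signal, was above background throughout. It was at 6.99 and 6.57 on the untreated arrays, 6.79 and 6.76 on the CDH5+ arrays and 6.99 and 7.27 on the c-KIT+ arrays. The c-KIT+ arrays were above the CDH5+ arrays and overlapped the untreated ones. The difference in c-KIT+ cells was 0.35 against untreated MEFs (SE 0.24, −0.23 to 0.93, limma adjusted p = 0.478) and 0.35 against CDH5+ cells (−0.23 to 0.94, adjusted p = 0.507), the value against CDH5+ cells being 0.10 after quantile normalization. CDH5+ cells differed from untreated MEFs by −0.01 (−0.59 to 0.57, adjusted p = 0.994), and by 0.16 after quantile normalization.

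All 7 Myd88 probe sets had higher means in c-KIT+ cells, set against untreated MEFs, by 0.30 to 0.75 with a median of 0.45, and 7.66% of 15706 genes with at least 7 probe sets had all of them higher. In CDH5+ cells against untreated MEFs, 4 of the 7 were higher. The 7 probe sets of Tlr4 all had positive differences in CDH5+ cells against untreated MEFs, of 0.19 to 1.55, and negative ones in c-KIT+ against CDH5+ cells, of −0.89 to −0.31, which held for 2.11% and 1.83% of those genes. Between c-KIT+ cells and untreated MEFs, 6 of the 7 Tlr4 probe sets were higher. Those of Tlr1, Tlr2, Tlr5, Tlr6, Tlr7, Tlr8 and Tlr9 went both ways in each comparison.

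**Figure D3:**
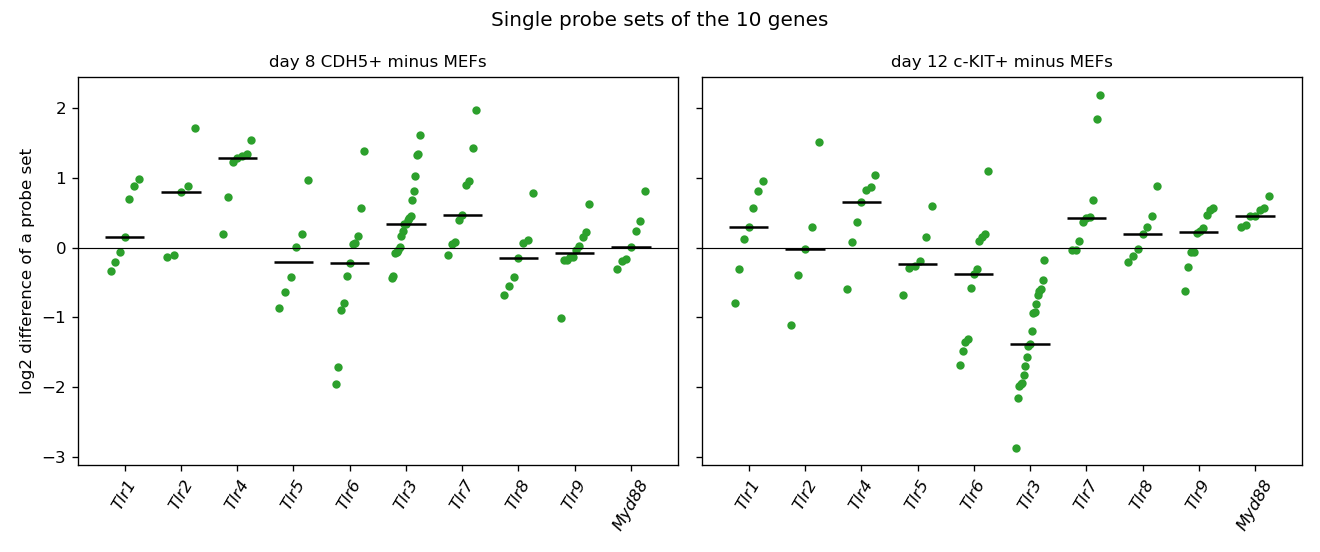
Log2 difference (vertical axis) of every probe set assigned to 1 of the 10 genes alone, in day 8 CDH5+ cells and in day 12 c-KIT+ cells against untreated MEFs. Each point is 1 probe set (difference of the means of 2 arrays each) and bars are medians; all 19 of Tlr3 lie below 0 and all 7 of Myd88 above 0 in c-KIT+ cells, and all 7 of Tlr4 lie above 0 in CDH5+ cells.

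The Myd88 promoter is shown for comparison with that of Tlr3 as the promoter of the adaptor. It covers the 250 bases before the start (RefSeq, GRCm38.p6, chr9:119340019-119340268, minus strand), 5′ to 3′, and its capitals mark CAGATG, the E-box letters searched.
Myd88: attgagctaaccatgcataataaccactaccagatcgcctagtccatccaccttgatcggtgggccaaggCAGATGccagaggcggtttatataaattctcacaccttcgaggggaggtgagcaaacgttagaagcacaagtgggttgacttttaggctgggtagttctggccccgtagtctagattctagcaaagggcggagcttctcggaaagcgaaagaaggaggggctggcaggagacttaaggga
CAGATG lay at bases 71 to 76, and none of the other 3 strings of letters matched. Promoters were found for 8 of the 10 genes, in 10 windows. The ETS core matched in Tlr1, Tlr2, Tlr6 and Tlr9, the GATA core in Tlr3 and Tlr9, the RUNX core in Tlr6, and the E-box in Tlr9 and Myd88. Tlr4 and Tlr7 had no entry.

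The pathway around the family was read from lists of 103 genes, all measured. Relative to untreated MEFs, 8 of the 103 rose in c-KIT+ cells and 1 fell, where 3.24% of all genes rose and 2.72% fell. Their median difference was 0.14 beside 0.05 over all genes, and 36 had an unadjusted p under 0.05, beside 21.1% of all genes. In CDH5+ cells against untreated MEFs, 2 rose and 0 fell, beside 0.965% and 0.213% of all genes, with a median of 0.03 beside −0.07 and 26 at an unadjusted p under 0.05, beside 15.3% of all genes. In c-KIT+ against CDH5+ cells, 0 were called, as was 0% of all genes, and 26 had an unadjusted p under 0.05, beside 16% of all genes. The 8 rises in c-KIT+ cells lost their calls when either c-KIT+ array was left out, which leaves that group with 1 array. Their differences stayed positive, among them Ccl3 at 5.12 and 5.81 and Tnf at 2.94 and 2.90.

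Genes upstream of signalling changed in both directions. Cd14, the co-receptor that hands lipopolysaccharide to Tlr4, rose by 2.97 in c-KIT+ cells against untreated MEFs (SE 0.47, limma adjusted p = 0.0246) and was the 1 gene called of 6 co-receptors and ligand carriers. It was at 8.48 and 8.40 in c-KIT+ cells, against 6.13 and 4.81 in untreated MEFs. CDH5+ cells had 7.53 and 8.16, a difference of 2.38 from untreated MEFs (limma adjusted p = 0.0984). The list did not rise as a whole: its median difference in c-KIT+ cells against untreated MEFs was −0.14, beside 0.05 over all genes. Ctsl, a protease that trims endosomal receptors, fell by 1.43 in c-KIT+ cells (SE 0.24, adjusted p = 0.0305) and was the 1 gene called of 10 for receptor folding, transport and cleavage. It averaged 9.71 ± 0.13 in c-KIT+ cells, against 11.13 ± 0.19 in untreated MEFs (SD, n = 2 each), and its call was lost without the first untreated array (adjusted p = 0.0846) as well as without either c-KIT+ array (0.183 and 0.227). Of the 3 other mouse receptors of the family, none passed: Tlr13, a receptor for bacterial ribosomal RNA, had a difference of 1.71 (adjusted p = 0.0732) and Tlr11, a receptor for profilin, one of −0.14 (adjusted p = 0.914), both within background on all 6 arrays.

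Among the adaptors other than Myd88, Pik3ap1, which links the receptors to PI3-kinase, rose by 2.34 in c-KIT+ cells (SE 0.26, limma adjusted p = 0.00909) and was the 1 of 5 called. It was at 6.73 and 6.76 in c-KIT+ cells, against 4.38 and 4.42 in untreated MEFs, the untreated values being within background. Of all genes, 3.24% were called higher in this comparison, 2.72% lower, and 21.1% had an unadjusted p under 0.05. The kinase relay of IRAK, TRAF6 and TAK1 had 0 of 11 called and 4 at an unadjusted p under 0.05; Irak4, the first kinase that Myd88 recruits, had 7.51 and 7.68 in c-KIT+ cells, against 6.67 and 6.00 in untreated MEFs, a difference of 1.26 (adjusted p = 0.0599), and Ube2v1, a ubiquitin-chain cofactor of TRAF6, one of −0.77 (adjusted p = 0.213). Of 13 genes of the IKK complex, NF-kB and IkB, 0 were called and 2 had an unadjusted p under 0.05, the differences being −0.66 for Relb, an NF-kB subunit (adjusted p = 0.171), and 0.59 for Nfkbib, an inhibitory IkB protein (adjusted p = 0.196). Of the 7 genes of the TRIF and interferon factor arm, 0 were called and 0 had an unadjusted p under 0.05, with differences of 0.35 for Irf7, an interferon regulatory factor (adjusted p = 0.648), and 0.34 for Ikbke, a kinase of such factors (adjusted p = 0.682). Sigirr, a receptor-like inhibitor of the pathway, rose by 1.59 (SE 0.21, adjusted p = 0.0143) as the 1 of 12 inhibitors called, with 6.46 and 6.50 in c-KIT+ cells, against 4.86 and 4.93, again within background, in untreated MEFs.

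The interleukin 1 receptor family also signals through Myd88. Of 12 of its receptors and ligands, 1 was called at day 12: Il18rap, the accessory chain of the interleukin 18 receptor, rose in c-KIT+ cells by 2.98 (SE 0.46, limma adjusted p = 0.0231). It was at 3.60 and 4.80 on the untreated arrays, 5.79 and 6.57 on the CDH5+ arrays and 7.21 and 7.16 on the c-KIT+ arrays, both untreated values being within background. Another 7 of the 12 had an unadjusted p under 0.05 without passing the adjusted test, a mark that 21.1% of all genes reached unadjusted. The median of the list was 0.27, beside 0.05 over all genes.

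Of 24 inflammatory genes known as targets of the pathway, 4 rose in c-KIT+ cells against untreated MEFs and 0 fell. Over all genes, 3.24% rose and 2.72% fell. For some genes that were not called, the 2 untreated arrays lay far apart. Saa3 was at 10.50 and 3.52 on them, against 10.32 and 10.17 in c-KIT+ cells. Lcn2 was at 7.18 and 3.97, against 8.82 and 9.07. The lack of a call in such genes does not mean that they were unchanged. Ccl3, a chemokine of myeloid cells, rose by 5.47 (SE 0.69, limma adjusted p = 0.0130), with 9.89 and 9.20 in c-KIT+ cells, against 4.46 and 3.70 in untreated MEFs. Tnf, the cytokine, rose by 2.92 (adjusted p = 0.0107), with 6.77 and 6.81 in c-KIT+ cells, against 3.98 and 3.76 in untreated MEFs. These untreated values were within background, as were those of Cxcl2 and Ccl4. Cxcl2, a chemokine for neutrophils, rose by 2.79 (adjusted p = 0.0354) and Ccl4, a chemokine related to Ccl3, by 1.92 (adjusted p = 0.0262). Both calls were also lost without the first untreated array, at adjusted p-values of 0.116 for Cxcl2 and 0.0851 for Ccl4, and that of Cxcl2 after quantile normalization (0.0561).

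In CDH5+ cells against untreated MEFs, 2 of the 24 rose and 0 fell, beside 0.965% and 0.213% of all genes. The list median was 0.82, beside −0.07 over all genes. An unadjusted p under 0.05 was reached by 12 of the 24, beside 15.3% of all genes. Ccl4 rose by 3.48 (SE 0.31, limma adjusted p = 0.00905), with 7.81 and 8.63 in CDH5+ cells, against 4.66 and 4.81 in untreated MEFs, and without the first untreated array its adjusted p was 0.0507. Ccl2, a chemokine for monocytes that fibroblasts also make, rose by 1.62 (SE 0.22, adjusted p = 0.0356), with 11.14 and 11.10 in CDH5+ cells, against 9.55 and 9.45 in untreated MEFs. Its call was lost without any 1 of the 6 arrays, at adjusted p-values of 0.0732 to 0.211, and with the 4 arrays alone (0.112). In c-KIT+ cells Ccl2 differed from untreated MEFs by −0.20 (adjusted p = 0.676).

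**Figure D4:**
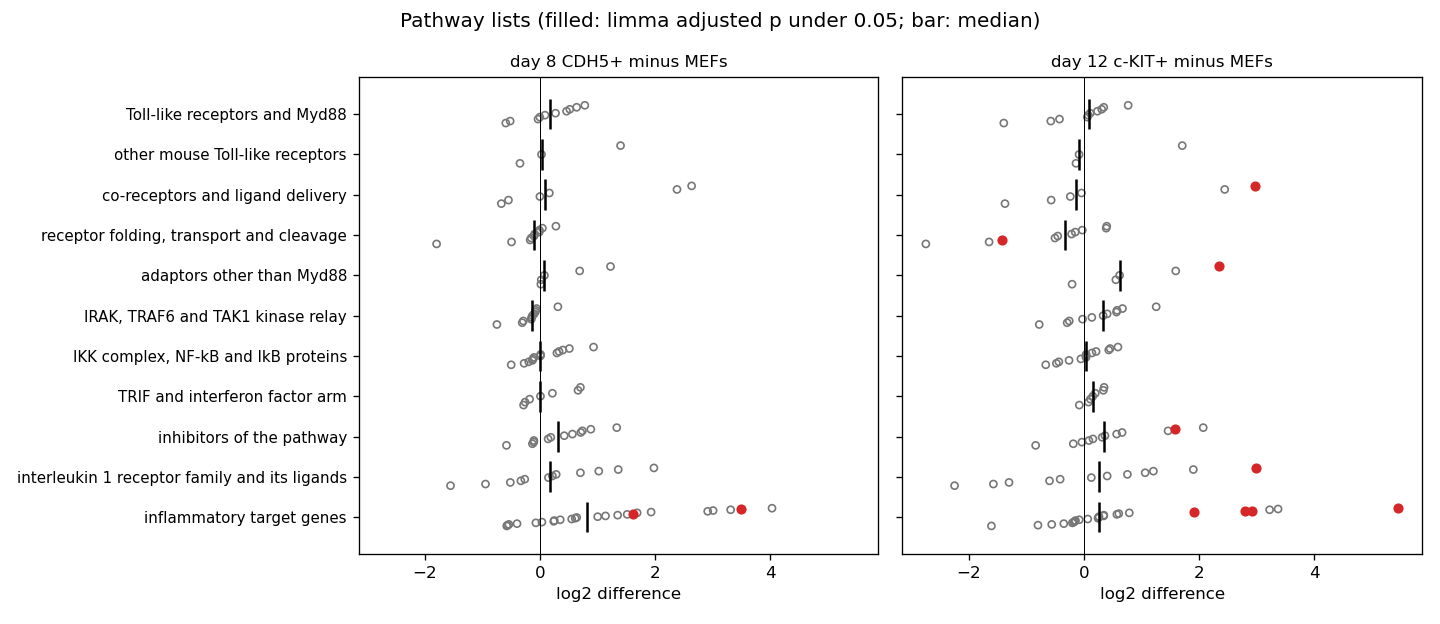
Log2 difference (horizontal axis) of each gene of the family and of the pathway lists (rows) in day 8 CDH5+ cells and in day 12 c-KIT+ cells against untreated MEFs. Each circle is 1 gene (difference of the means of 2 arrays each), filled where limma's adjusted p is under 0.05, and bars are list medians; 0 of the 10 family members are filled, against 8 filled circles to the right and 1 to the left of 0 among the other 103 genes in c-KIT+ cells and 2 to the right in CDH5+ cells.

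Some blood cell markers also rose. All 6 neutrophil markers rose both in c-KIT+ and in CDH5+ cells against untreated MEFs, and their summed level (log2 of the sum of linear values) was 7.14 and 7.08 on the untreated arrays, 12.90 and 13.34 on the CDH5+ arrays and 13.75 on both c-KIT+ arrays, with 0 of the 6 above background in untreated MEFs. Of 8 monocyte and macrophage markers, 3 rose in c-KIT+ cells: C5ar1 by 2.70 (limma adjusted p = 0.00673), Adgre1 by 1.23 (adjusted p = 0.0379) and Cd68 by 1.08 (adjusted p = 0.0399). Mertk, a receptor for the uptake of dying cells, had a difference of −1.20 (adjusted p = 0.0811). Adgre1 and Csf1r, the receptor that defines this lineage, stayed within background on all 6 arrays, and the summed level was 8.97 and 8.79 in c-KIT+ cells, against 8.00 and 8.22 in untreated MEFs. Of 6 mast cell and basophil markers, 3 rose in c-KIT+ cells, with summed levels of 12.40 and 12.46 in c-KIT+ cells, against 6.87 and 6.94 in untreated MEFs. The highest of the 6 in c-KIT+ cells were Mcpt8, at 12.08 and 12.07, and Cpa3, at 9.88 and 10.17. Tpsb2, Fcer1a and Ms4a2 stayed within background on all 6 arrays. Of 6 dendritic and 4 B cell markers, 0 were called in either comparison with untreated MEFs and 0 had an unadjusted p under 0.05. The part of these cell types in the values of the family and its pathway was not tested.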

How the data were processed

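Mouse Exon 1.0 ST arrays of untreated MEFs, CDH5+ cells and c-KIT+ cells (2 each) were used as the authors deposited them: log2 expression values per gene and log2 values per probe set. Their normalization, software and build were not given in the sources used here. As in the study's methods, limma was fitted to all genes, here version 3.58.1 in R 4.3.3, with 1 mean per group over all 6 arrays and Benjamini-Hochberg adjustment over 26323 genes at 0.05. No dim gene was removed. Of 1236087 probe sets, the 321091 with 1 gene symbol in the platform annotation were used by gene, and 7796 with several symbols and 907200 with none listed were left out. Gene values and probe set medians correlated at r = 0.881 to 0.901 over 17449 genes. The 10 members and the lists were chosen with earlier results of these data known. All members were named. Of each pathway list, up to 4 genes past the test were named, taken by absolute difference in c-KIT+ cells against untreated MEFs. Where none passed, the 2 with the largest absolute difference were named. Ccl2, Saa3, Lcn2 and the markers given with values were chosen after their values were seen. No member passed the F-test, so no genes of like pattern were named. Scripts were tested on simulated data. Alternatives were quantile normalization, median centring, probe set medians, an intensity trend, robust variances, a filter on dim genes, the 4 arrays compared alone, a replicate block and leaving out each array.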

Additional observations from a re-analysis of the deposited data

How the results depend on the processing

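With 2 arrays a group, precision is limited by their number, and only 4 members (Tlr2, Tlr4, Tlr5 and Myd88) passed a filter on dim genes. Normalization before deposit could not be varied.

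Of the members, 0 were called in every pairwise comparison under the replicate block, quantile normalization, median centring, probe set medians, intensity trend, robust variances, the dim filter and the 4 arrays alone. Leaving out 1 array leaves 1 in its group. The Tlr3 difference in c-KIT+ cells against untreated MEFs then ran from −2.28 to −0.50. With 2 arrays in each group, the lowest adjusted p of a pairwise limma test was 0.0527. It was that of Tlr7 in c-KIT+ cells against untreated MEFs with probe set medians.

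Over all genes, deviations of same-numbered arrays correlated weakly, at 0.12 (CDH5+ with MEF), −0.02 (c-KIT+ with MEF) and −0.05 (c-KIT+ with CDH5+). Whether same-numbered arrays share a source of fibroblasts is not given, and these values cannot decide it. With the replicate block, the lowest member adjusted p was 0.196 in c-KIT+ cells and 0.379 in CDH5+ cells against untreated MEFs and 0.309 between the sorted groups.

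Signs turned, with no call, in small differences, and the cause was not tested. With probe set medians, Tlr9 was at −0.025 in c-KIT+ cells and Tlr8 at −0.42 and Myd88 at 0.19 in CDH5+ cells against untreated MEFs, and Tlr7 at −0.091 between c-KIT+ and CDH5+ cells; with quantile normalization Myd88 was at 0.16 in CDH5+ cells. Leaving out 1 array gave, in c-KIT+ cells against untreated MEFs, −0.063 to 0.28 for Tlr1, −0.31 to 0.43 for Tlr2, −0.23 to 0.85 for Tlr4, −0.92 to 0.077 for Tlr5 and −0.045 to 0.52 for Tlr8. In CDH5+ cells against untreated MEFs it gave −0.055 to 0.59 for Tlr1, −0.43 to 1.34 for Tlr3, −0.072 to 0.24 for Tlr8, −0.087 to 0.011 for Tlr9 and −0.22 to 0.20 for Myd88, and between c-KIT+ and CDH5+ cells −0.48 to 0.17 for Tlr1, −0.19 to 0.54 for Tlr5, −0.31 to 0.20 for Tlr6 and −0.13 to 0.43 for Tlr8.

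The same settings were run on the 103 pathway genes after the data were seen. Leaving out 1 array gave 0 to 11 genes higher and 0 to 5 lower in c-KIT+ cells, and 1 to 5 higher and 0 to 1 lower in CDH5+ cells, against untreated MEFs. In c-KIT+ cells, 0 were lower with the replicate block, 2 with the dim filter and 2 with the 4 arrays alone, and in CDH5+ cells 1 was higher with the 4 arrays alone. With the replicate block, Ctsl in c-KIT+ cells (adjusted p = 0.0537) and Ccl2 in CDH5+ cells (0.0856) lost their calls.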
